A study of Mus musculus with 18 samples.

Results

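The genes examined here make up the core of nitric oxide and cyclic GMP (cGMP) signaling, namely the nitric oxide synthases Nos1, Nos2 and Nos3, the guanylyl cyclase subunits Gucy1a1 and Gucy1b1, and the cGMP-dependent protein kinases Prkg1 and Prkg2. They were chosen by their gene symbols and are 7 of the 55573 genes in the count table. RNA-sequencing covered 18 samples of spinal dorsal horn (DHSC) from adult C57BL/6J mice aged 8 to 12 weeks, dissected from the side of the injected hind paw 2 h after an injection of 2% formalin. The groups were 6 males, 6 F1/proestrus females, whose behavior had a short quiet interphase, and 6 F2/metestrus females, whose interphase was long. No engineered allele is described for any group and all 3 groups received formalin, so no comparison with an uninjected state could be made. F1 or F2 behavior and the stage of the cycle come as 1 label and cannot be told apart.

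Nitric oxide is a gas made from arginine by the synthases, and it diffuses to neighboring cells, where its main receptor is soluble guanylyl cyclase. This enzyme is a pair of an alpha and a beta subunit, and it makes cGMP, which activates the cGMP-dependent kinases, opens certain ion channels and is broken down by phosphodiesterases. In the dorsal horn, the neuronal synthase is found mainly in interneurons of the superficial laminae, and the pathway is a classical subject of work on the sensitization of pain circuits after tissue injury. The endothelial synthase and the pathway in smooth muscle set the tone of blood vessels.

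Positions are given on GRCm38, and each locus carries an annotated protein-coding gene. Nos1 lies on chromosome 5 at 117781032 to 117958840 on the plus strand, Nos2 on chromosome 11 at 78920787 to 78960254 on the plus strand, and Nos3 on chromosome 5 at 24364810 to 24384474 on the plus strand. Gucy1a1 (chromosome 3, 82092427 to 82145789) and Gucy1b1 (chromosome 3, 82032006 to 82074689) are neighbors on the minus strand, 17737 bases apart with 0 annotated genes between them. Prkg1, on the minus strand of chromosome 19 at 30564489 to 31765033, spans 1200.5 kb, whereas Prkg2, on the minus strand of chromosome 5 at 98929773 to 99037351, spans 107.6 kb.

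Because the alpha and beta subunits work as 1 enzyme and their genes are neighbors, the 250 bases upstream of a RefSeq start of each (GRCm38.p6) are shown, 5′ to 3′ on the strand of the gene. Capitals mark the CCAAT box (CCAAT, or ATTGG on the other strand) and the GC box (GGGCGG, or CCGCCC on the other strand). The Gucy1b1 window is chr3:82074712-82074961 and the Gucy1a1 window, which belongs to 1 of its 2 listed starts, is chr3:82145651-82145900. Part of this Gucy1a1 window lies inside the annotated span of the gene, which ends at 82145789.
Gucy1b1: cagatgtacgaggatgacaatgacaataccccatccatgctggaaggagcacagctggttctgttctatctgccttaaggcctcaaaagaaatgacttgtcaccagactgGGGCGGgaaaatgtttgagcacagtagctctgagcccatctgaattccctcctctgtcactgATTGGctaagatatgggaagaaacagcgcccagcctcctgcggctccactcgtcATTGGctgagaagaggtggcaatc
Gucy1a1: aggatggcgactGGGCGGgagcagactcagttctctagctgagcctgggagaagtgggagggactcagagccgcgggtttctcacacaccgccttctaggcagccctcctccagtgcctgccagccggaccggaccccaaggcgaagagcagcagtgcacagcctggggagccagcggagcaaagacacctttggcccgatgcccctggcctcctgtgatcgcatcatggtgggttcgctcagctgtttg
The Gucy1b1 window held a CCAAT box at -78 and at -24 and a GC box at -140 from its start, while the Gucy1a1 window held a GC box at -238 and no CCAAT box. Searched on both strands, a CCAAT box occurred in 33.8% and a GC box in 32.7% of 32851 mouse promoter windows, so both are common letters. Of the 2 Prkg1 windows, 1 held a CCAAT box at -55 and a GC box at -66, and the other a GC box at -229. The Nos1 window (chr5:117866589-117866838) and the other Gucy1a1 window held neither box. They and the Prkg1 window with the GC box at -229 lie inside the annotated spans of their genes. The sequence before the annotated 5′ end of Nos1 was not examined. No window was available for Nos2, Nos3 or Prkg2.

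Total counts ranged from 73590509 to 125724156 per sample, at which 3 counts correspond to 0.0239 to 0.0408 counts scaled to a fixed library total (CPM, before TMM scaling). Library numbers in the table's header fall into 2 series, 27 to 35 (replicates 1 to 3) and 188 to 196 (replicates 4 to 6), each holding 3 samples of every group, and are called the first and second library series. Markers of the dorsal horn were present, as 10 of 10 markers of inhibitory neurons summed to 725 to 955 CPM and 10 of 10 of excitatory neurons to 489 to 642 CPM. F1/proestrus replicate 5 stood apart, with 468 CPM summed over 8 of 8 markers of dorsal root ganglion neurons against 2.36 to 4.53 in the other samples. Its 9 of 9 motor neuron markers summed to 529 CPM against 43.5 to 279. That list includes Isl1, Prph and Calca, which are not particular to motor neurons, so the sums may not be independent. The stage, sex and library series fits of Gucy1b1 and most of its ratio differences are also given without this sample. Marker sums by sex and correlations are not. Males had higher median sums than females for Schwann cells, neutrophils, and microglia and macrophages, with overlapping ranges. The sums were 1129 to 2536 against 789 to 1438 CPM for Schwann cells (7 of 7 markers). They were 5.86 to 32.6 against 2.06 to 11.0 CPM for neutrophils (10 of 10). For microglia and macrophages (8 of 8) they were 254 to 273 against 226 to 259 CPM. These marker counts give the markers with more than 3 counts in at least 1 sample. How many single markers were higher in males was not counted. Meningeal fibroblast sums (8 of 8) had a median of 430 CPM in males and 353 CPM in females, and motor neuron sums 131 and 215 CPM. In whole tissue, fewer cells of a type and less RNA per cell cannot be told apart.

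Nos1 encodes the neuronal synthase. Its lowest, median and highest levels were 37.4, 44.8 and 52.6 CPM in males, 41.3, 43.5 and 50.2 CPM in F1/proestrus and 45.0, 46.9 and 49.2 CPM in F2/metestrus. The groups overlapped, and the males were the most spread, with replicates 1 to 3 at 51.0, 52.6 and 46.3 CPM and replicates 4 to 6 at 43.2, 41.2 and 37.4 CPM. Nos3, the endothelial synthase, had 16.5, 17.0 and 24.0 CPM (lowest, median and highest) in males, 17.4, 19.3 and 20.2 CPM in F1/proestrus and 16.3, 18.5 and 19.7 CPM in F2/metestrus. The 24.0 CPM came from males replicate 4, above every other sample. In that sample the 10 endothelial markers summed to 301 CPM, the highest of the 18 samples (249 to 301 CPM). The part of these markers in the value was not tested.

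Nos2, the inducible synthase of activated immune cells, was the weakest member, with 29 to 171 counts per sample. The males had 0.561, 0.625, 0.540, 0.515, 0.356 and 0.884 CPM, F1/proestrus 0.264, 0.907, 1.39, 0.903, 0.814 and 0.864 CPM, and F2/metestrus 0.846, 1.64, 0.992, 0.429, 0.444 and 0.867 CPM (replicates 1 to 6). Of the males, 5 of 6 lay below the female median of 0.865 CPM, but the females spanned the whole range, from the lowest to the highest sample. The neutrophil and microglial marker sums given above, of cells that can make Nos2, were higher in males, whereas Nos2 averaged 0.580 ± 0.174 CPM in the 6 males and 0.863 ± 0.385 CPM in the 12 females (SD).

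Gucy1a1, the alpha subunit of soluble guanylyl cyclase, had 46.4, 39.6, 42.9, 39.4, 35.1 and 35.8 CPM in males (replicates 1 to 6). It had 47.6, 46.3, 44.0, 42.6, 43.1 and 41.0 CPM in F1/proestrus and 44.5, 51.1, 42.0, 48.9, 45.4 and 45.0 CPM in F2/metestrus. The 4 lowest values were all from males, while males replicate 1 was above the female median of 44.7 CPM, so the sexes overlapped.

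Gucy1b1, the beta subunit, which binds the heme that senses nitric oxide, had 49.6, 45.2, 50.6, 43.4, 44.5 and 37.9 CPM in males. The corresponding levels were 50.5, 52.0, 50.7, 47.8, 35.1 and 48.8 CPM in F1/proestrus and 49.3, 53.3, 50.3, 43.5, 46.7 and 43.1 CPM in F2/metestrus. The lowest of all, 35.1 CPM, was F1/proestrus replicate 5, the sample with the high sums of ganglion and motor neuron markers. What part the tissue behind those markers had in the value was not tested. Gucy1a1 in that sample, 43.1 CPM, was within the range of its group.

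Prkg1, the soluble kinase of smooth muscle and of many neurons, had 14.9, 12.3, 13.3, 7.41, 9.87 and 8.71 CPM in males, 13.0, 14.3, 10.6, 11.0, 12.5 and 11.8 CPM in F1/proestrus, and 15.1, 14.6, 10.8, 9.06, 9.11 and 8.88 CPM in F2/metestrus. Replicates 4 to 6 were lower than replicates 1 to 3 in males and in F2/metestrus without overlap, but not in F1/proestrus. How many of all genes separated in this way within a group was not counted. Between the library series, 27.6% of the 24038 genes tested passed the test given below. Prkg2, the membrane-bound kinase, was the steadiest member. Its coefficient of variation over the 18 samples was 6.54%, against 20.7% for Prkg1 and 45.7% for Nos2, and it ranged from 13.4 to 15.8 CPM in males, 13.3 to 16.7 CPM in F1/proestrus and 13.7 to 16.1 CPM in F2/metestrus.

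**Figure D1:**
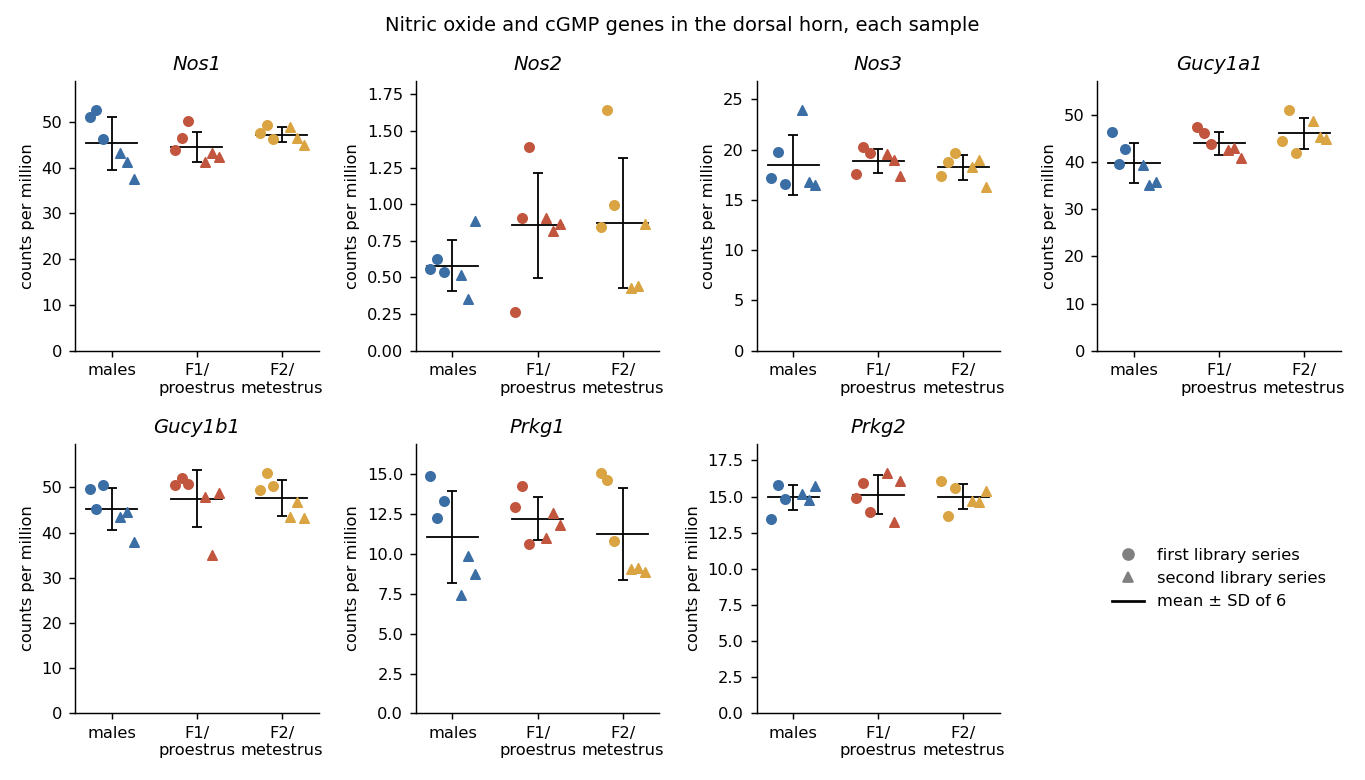
Level of each gene in each of the 18 samples (vertical axis, CPM, from 0) by group, with circles for the first library series, triangles for the second and bars for the mean ± SD of 6. The groups overlap in all 7 panels, and most triangles of Prkg1 lie below the circles, with medians of 9.11 and 13.3 CPM in the second and first series.

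Levels of different genes were compared per kilobase (kb) of exon. Gucy1b1 was the highest at 11.9 ± 1.24 CPM per kb (SD, n = 18), followed by Gucy1a1 at 6.22 ± 0.600, Nos3 at 4.49 ± 0.453, Nos1 at 4.10 ± 0.350, Prkg2 at 2.80 ± 0.183, Prkg1 at 1.06 ± 0.219 and Nos2 at 0.174 ± 0.0797 CPM per kb. Neighbors in this order did not overlap in range, except that Gucy1a1 was above Nos3 in 17 of 18 samples and Nos3 above Nos1 in 14 of 18. The beta subunit of the cyclase was above the alpha subunit in 18 of 18 samples, by 1.91-fold in the mean, and Prkg2 was above Prkg1 in 18 of 18, by 2.64-fold. These gaps depend on the annotated exon lengths, 3927 bases for Gucy1b1 against 6968 for Gucy1a1, and 5369 for Prkg2 against 10861 for Prkg1. Without division by length, the geometric mean ratio over the 18 samples was 0.928 for Gucy1a1 to Gucy1b1 and 0.752 for Prkg1 to Prkg2.

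Of the 3 synthases together, per kb, Nos3 made up 51.2% ± 2.90, Nos1 46.8% ± 2.88 and Nos2 1.98% ± 0.857 (SD, n = 18). The size of the gap between Nos3 and Nos1 depends on the length used. Of the 4132 exon bases of Nos3, 1334 are shared with genes on the other strand (Gm15587, an antisense RNA, and Atg9b), and whether the counting used strand, and how shared reads were treated, is not given in the sources used here. When the same counts were divided by the exon bases that no other gene shares, Nos3 stood at 6.63 and Nos1 at 4.20 CPM per kb. The ratio was then 1.58 in place of 1.10, with Nos3 above Nos1 in 18 of 18 samples. The counts were not restricted to those bases, so 1.58 is too high if reads in shared bases were counted.

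**Figure D2:**
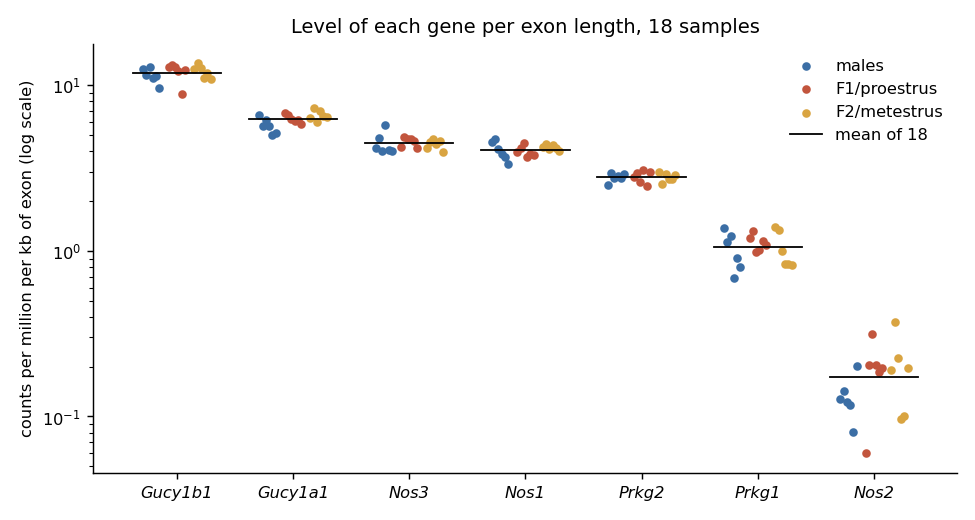
Level of each gene divided by its exon length (vertical axis, CPM per kb, log scale) for the 18 samples, colored by group, with the mean of 18 as a line. The genes run from Gucy1b1 at 11.9 down to Nos2 at 0.174 CPM per kb, and the groups lie together within each gene.

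The first comparison asks whether the DHSC transcriptome differs between females with a long and a short interphase. None of the 7 members passed the test in F2/metestrus against F1/proestrus (edgeR's quasi-likelihood test, Benjamini-Hochberg adjusted p of 1 for each). Across the transcriptome 0 of 24042 genes tested passed (0%), 596 had an unadjusted p under 0.05, and DESeq2 called 2, no member among them. The log2 fold changes were 0.08 ± 0.05 for Nos1, 0.03 ± 0.35 for Nos2, -0.05 ± 0.06 for Nos3, 0.06 ± 0.06 for Gucy1a1, 0.01 ± 0.09 for Gucy1b1, -0.12 ± 0.14 for Prkg1 and -0.02 ± 0.07 for Prkg2 (SE).

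The intervals show how large a difference could have been present. The 95% confidence interval was -0.04 to 0.20 on the log2 scale for Nos1 and -0.06 to 0.19 for Gucy1a1, but -0.72 to 0.79 for Nos2, the widest of the members. For Nos1 all 6 F2/metestrus samples were above the F1/proestrus median of 43.5 CPM. Prkg1 fell on different sides in the library series. Its log2 fold change was 0.09 in the first series, where the 3 and 3 samples overlapped, and -0.39 in the second, where 9.06, 9.11 and 8.88 CPM in F2/metestrus lay below 11.0, 12.5 and 11.8 CPM in F1/proestrus (unadjusted p = 0.0037, adjusted p = 1 by edgeR). Such a separation in 1 direction or the other was present in 6.72% of genes in that series, and 0% passed the test there. Without F1/proestrus replicate 5 the log2 fold change of Gucy1b1 was -0.07 in place of 0.01 (adjusted p = 1 by edgeR).

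The second comparison asks whether males and females differ in the DHSC after formalin, with both female groups as 1 condition. Between 6 males and 12 females 0 of the 7 members passed the test, against 49 of 24862 genes tested (0.197%) across the transcriptome. In that fit 2416 genes had an unadjusted p under 0.05, Gucy1a1 among them, and DESeq2 called 166 of 23861 (0.696%) and no member.

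Gucy1a1 was the member with the smallest p. The 6 males averaged 39.9 ± 4.26 CPM and the 12 females 45.1 ± 2.96 CPM (SD), a log2 fold change of -0.18 ± 0.06 (SE) with a 95% confidence interval of -0.30 to -0.05 (unadjusted p = 0.00673, adjusted p = 0.323 by edgeR). Of the 6 males, 5 lay below the female median. The difference had the same direction in both library series, -0.11 in the first (adjusted p = 0.738 by edgeR) and -0.26 in the second (unadjusted p = 0.0022, adjusted p = 0.259 by edgeR). No member passed in either series alone, where 0.0629% of genes passed in the first and 0.0531% in the second. In the second series the 3 males, at 39.4, 35.1 and 35.8 CPM, were below all 6 females, at 41.0 to 48.9 CPM, a separation that 5.24% of genes had in 1 direction or the other. Its adjusted p ranged from 0.101 to 0.874 over the other settings with all replicates or with 1 series or female group alone, and from 0.103 to 0.758 when 1 sample was left out. The males also had the higher Schwann cell, neutrophil, microglial and meningeal fibroblast sums and the lower motor neuron sums given above. Marker sums of smooth muscle and pericytes had medians of 205 CPM in males and 200 CPM in females. Those of inhibitory neurons were 827 and 857 CPM, and those of excitatory neurons 560 and 532 CPM. The part of any of these in the value was not tested.

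The partner subunit Gucy1b1 had a log2 fold change of -0.08 ± 0.08 (SE) in males against females, with an interval of -0.23 to 0.08 (adjusted p = 0.753), and -0.11 without F1/proestrus replicate 5 (adjusted p = 0.573, both by edgeR). Nos2 had the largest fitted difference, -0.57 ± 0.29 (SE), and the widest interval, -1.17 to 0.03 (unadjusted p = 0.0622, adjusted p = 0.527 by edgeR). The remaining log2 fold changes were -0.02 ± 0.06 for Nos1, -0.01 ± 0.07 for Nos3, -0.08 ± 0.14 for Prkg1 and -0.01 ± 0.06 for Prkg2 (SE), with adjusted p from 0.872 to 0.976. Nos3 stood at -0.10 without males replicate 4 (adjusted p = 0.625 by edgeR).

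When any difference among the 3 groups was tested, 0 of the 7 members passed, with 35 of 24862 genes called (0.141%) by edgeR, 1529 at an unadjusted p under 0.05, and 141 called by DESeq2. Gucy1a1 again had the smallest p among the members (unadjusted p = 0.0184, adjusted p = 0.673 by edgeR).

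**Figure D3:**
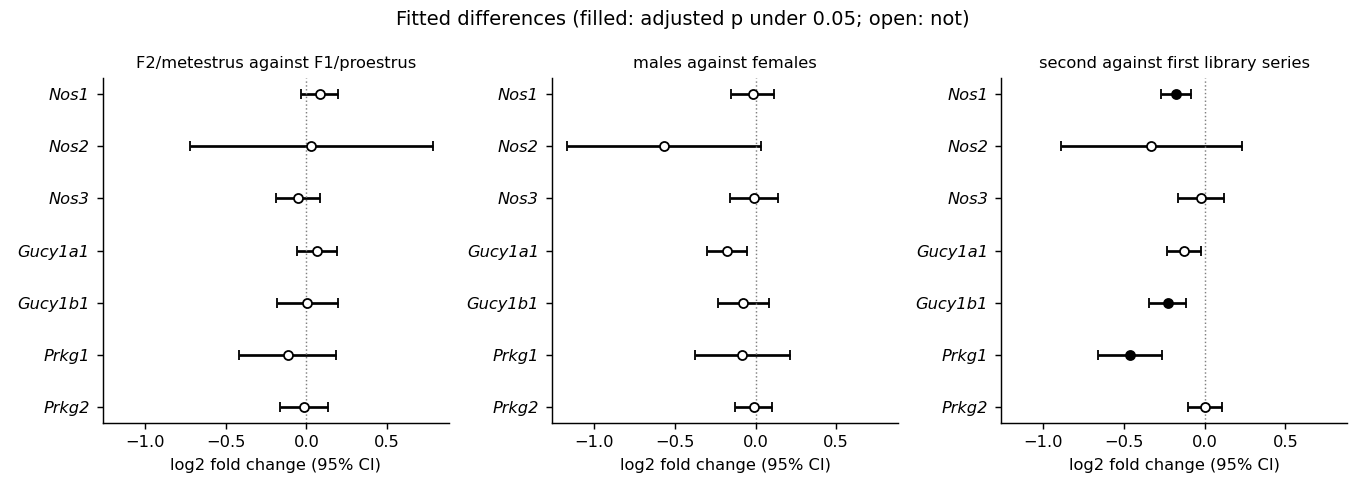
Fitted log2 fold change (horizontal axis) of each gene with its 95% confidence interval in 3 comparisons, filled where the adjusted p is under 0.05. No gene is filled for F2/metestrus against F1/proestrus or for males against females, and Nos1, Gucy1b1 and Prkg1 are filled and below 0 for the second against the first library series.

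The library series were compared with each other because samples of 1 group differed between them. In the second series against the first, with the groups in the model, 3 of 7 members passed the test, all lower in the second, where 27.6% of the 24038 genes tested passed and 15.2% passed as lower. Prkg1 averaged 9.82 ± 1.65 CPM in the second and 13.2 ± 1.69 CPM in the first series (SD, n = 9), a log2 fold change of -0.46 ± 0.09 (SE, adjusted p = 0.00111). Gucy1b1 averaged 43.4 ± 4.49 and 50.2 ± 2.22 CPM (-0.23 ± 0.05, adjusted p = 0.00376), and Nos1 43.2 ± 3.32 and 48.1 ± 2.78 CPM (-0.18 ± 0.05, adjusted p = 0.00608). For Prkg1 and Gucy1b1, 9 of 9 samples of the second series were below the median of the first, and for Nos1 8 of 9 were.

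Without F1/proestrus replicate 5, Gucy1b1 still passed at -0.17 (adjusted p = 0.00386 by edgeR). Gucy1a1, at -0.13 ± 0.05 (SE, adjusted p = 0.0593), passed when F2/metestrus replicate 1, 3 or 4 was left out (adjusted p = 0.044, 0.0164 and 0.0476 by edgeR). Nos2, Nos3 and Prkg2 did not pass, and Prkg2 stood at 0.002 ± 0.05 (SE). Marker sums moved in different directions between the series. Those of inhibitory neurons were 825 to 955 CPM in the first and 725 to 859 CPM in the second, those of excitatory neurons 489 to 556 and 530 to 642 CPM, and those of smooth muscle and pericytes (10 of 10 markers) 186 to 226 and 145 to 231 CPM. Their part in the values was not tested. The labels do not say what sets the series apart.

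Whether the sex difference itself changed between the library series was tested with an interaction term. Here 0 of the 7 members and 0 of 26075 genes (0%) passed by edgeR, and 1238 genes had an unadjusted p under 0.05. Nos1 was the member with the smallest p. Its log2 fold change between the sexes was 0.07 in the first series, where the males averaged 50.0 and the females 47.2 CPM, and -0.13 in the second, where they averaged 40.6 and 44.5 CPM, an interaction of -0.20 ± 0.09 (SE, unadjusted p = 0.0321, adjusted p = 0.97 by edgeR).

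The balance between partners was then examined as log2 ratios of CPM within a sample, which a factor common to both genes leaves unchanged. The log2 ratio of Gucy1a1 to Gucy1b1 was -0.18 ± 0.10 in males (SD, n = 6), -0.10 ± 0.20 in F1/proestrus and -0.05 ± 0.15 in F2/metestrus. Males differed from females by -0.11 (exact permutation test over 18564 splits, two-sided, p = 0.176, adjusted p = 0.636 over 6 ratio tests). The highest ratio, 0.30, was F1/proestrus replicate 5, and without it the difference was -0.07 (exact p = 0.25, adjusted p = 0.636). F2/metestrus differed from F1/proestrus by 0.05 (exact p = 0.636, adjusted p = 0.636), and by 0.13 without that sample (exact p = 0.113, adjusted p = 0.529), when the F1/proestrus mean was -0.18 ± 0.06 (SD, n = 5).

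The log2 ratio of Prkg1 to Prkg2 was -0.47 ± 0.44 in males, -0.31 ± 0.20 in F1/proestrus and -0.45 ± 0.37 in F2/metestrus (SD, n = 6). It differed more between the library series, at -0.18 ± 0.22 in the first and -0.64 ± 0.27 in the second (SD, n = 9), than between any pair of groups. The log2 ratio of Nos1 to Gucy1b1 was 0.00 ± 0.13 in males, -0.08 ± 0.20 in F1/proestrus and -0.01 ± 0.11 in F2/metestrus (SD, n = 6). None of the 6 ratio tests passed, each with an adjusted p of 0.636 by the exact permutation test. Without F1/proestrus replicate 5 the Nos1 to Gucy1b1 ratio differed by 0.15 between F2/metestrus and F1/proestrus (exact p = 0.0368, adjusted p = 0.221).

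**Figure D4:**
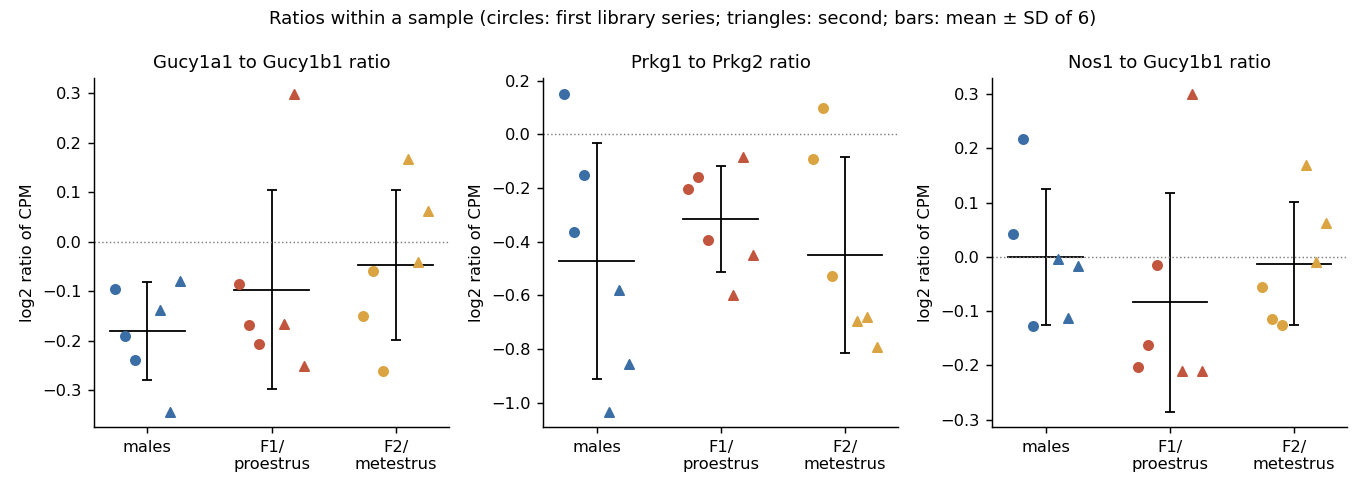
Log2 ratio of CPM within each sample (vertical axis) for 3 gene pairs by group, with circles for the first and triangles for the second library series and bars for the mean ± SD of 6. The groups overlap in each pair, F1/proestrus replicate 5 is the highest point in both panels with Gucy1b1 at 0.30, and the triangles of Prkg1 to Prkg2 lie mostly below the circles, with means of -0.64 and -0.18.

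The genes most like each member were sought among 17763 genes with a mean of at least 1 CPM, by the correlation of log2 CPM over the 18 samples after centring within group and library series. The points share their libraries, so these values are a description. The genes named are the highest of 17763 correlations over few samples, and what unrelated genes would reach was not computed. They include F1/proestrus replicate 5 and were not repeated without that sample. Without the centring the correlation was lower for several genes, at 0.0762 for Gm14681 with Gucy1b1, 0.371 for Iqub with Nos1, 0.457 for Greb1l with Nos3 and 0.35 for Rnft2 with Prkg2, so their likeness rests largely on the centring. Nos3 was closest to Gm15587 (r = 0.95), the antisense RNA that shares 1040 of its exon bases and had 10151 counts in all against 33550 for Nos3, and without knowledge of the strand reads of the pair cannot be told apart. Next came Greb1l (r = 0.943) and Lrg1 (r = 0.924), the latter a secreted glycoprotein of inflamed endothelium. Nos1 was closest to Ccdc148 (r = 0.854), Iqub (r = 0.834) and Gm16599 (r = 0.831).

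Prkg1 was closest to Galnt13 (r = 0.936), an enzyme that starts O-linked glycosylation, to Creb1 (r = 0.932), the transcription factor CREB, and to Sort1 (r = 0.912), a sorting receptor. Gucy1a1 was closest to Stxbp5l (r = 0.871), Lmbrd1 (r = 0.846) and Slc4a4 (r = 0.845), the last a bicarbonate cotransporter of astrocytes. The gene closest to Gucy1b1 has only the identifier ENSMUSG00000116875 (r = 0.901), followed by Gm14681 (r = 0.883) and Lgi2 (r = 0.882). Prkg2 was closest to Gm9063 (r = 0.869), Rnft2 (r = 0.869) and Kpna2-ps (r = 0.864). Nos2 was below the limit of 1 CPM. Neither subunit of the cyclase was among the 3 genes most like the other.

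The wider pathway was read from 6 lists holding 74 genes, of which 70 had enough counts to be tested. None of the 70 passed between F2/metestrus and F1/proestrus or between males and females by edgeR, where 0% and 0.197% of all genes did, and 0 and 5 of them had an unadjusted p under 0.05. The median log2 fold change over the 70 was -0.02 for F2/metestrus against F1/proestrus and -0.003 for males against females, beside -0.0004 and -0.001 over all genes tested.

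Between the sexes, the smallest p of the 19 genes for nitric oxide supply and synthase partners belonged to Nostrin, which encodes an adaptor that moves the endothelial synthase from the membrane. Its level was 6.86 to 8.52 CPM in males and 7.98 to 11.6 CPM in females, a log2 fold change of -0.30 ± 0.08 (SE, unadjusted p = 0.000953, adjusted p = 0.16 by edgeR), and DESeq2 called it (adjusted p = 0.0222). Its log2 fold change was -0.39 in the first and -0.22 in the second series. The 10 endothelial markers summed to 249 to 301 CPM in males (median 268) and 260 to 291 CPM in females (median 284). Their part in the value was not tested. The binding partner of Nostrin, Nos3, stood at -0.01 in the same fit.

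In the other lists the gene with the smallest p between males and females was Gucy1a2 (-0.28 ± 0.13, adjusted p = 0.499), the second alpha subunit, Pde6g (0.54 ± 0.25, adjusted p = 0.495), a phosphodiesterase subunit known from photoreceptors, and Ppp1r1b (0.17 ± 0.08, adjusted p = 0.514), which encodes the kinase target DARPP-32. Gchfr, the regulator of tetrahydrobiopterin synthesis, stood at 0.24 ± 0.15 (adjusted p = 0.603), and Cnga3, a cGMP-gated channel subunit, at 0.36 ± 0.18 (SE, adjusted p = 0.52). Pde6g averaged 0.296 ± 0.0973 CPM in males and 0.204 ± 0.0666 CPM in females (SD, n = 6 and 12).

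Between F2/metestrus and F1/proestrus genes with the smallest p of their lists were Slc7a1 (-0.08), an arginine transporter, Gucy2e (0.19), Pde6g (-0.37), Cnga3 (-0.31) and Pln (-0.36), which encodes phospholamban, given as log2 fold changes with an adjusted p of 1 each by edgeR.

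Between the library series 31 of the 70 pathway genes passed, 14 higher and 17 lower in the second, beside the 27.6% of all genes (12.4% higher and 15.2% lower, or 14.7% and 13.4% with size factors in place of TMM). Of the 19 genes for nitric oxide supply and synthase partners 8 were higher and 2 lower, and of 15 phosphodiesterases 0 were higher and 5 lower, a difference between lists that was not tested. Among the higher were Ddah2 (0.37), which degrades inhibitors of the synthases, Sod3 (0.23), an extracellular superoxide dismutase, and Nppc (0.29), the C-type natriuretic peptide. Among the lower were Itpr1 (-0.69), a calcium release channel, Slc7a2 (-0.53), an arginine transporter, Pde3a (-0.51), Gucy1a2 (-0.47) and Pde10a (-0.45, each as a log2 fold change).

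**Figure D5:**
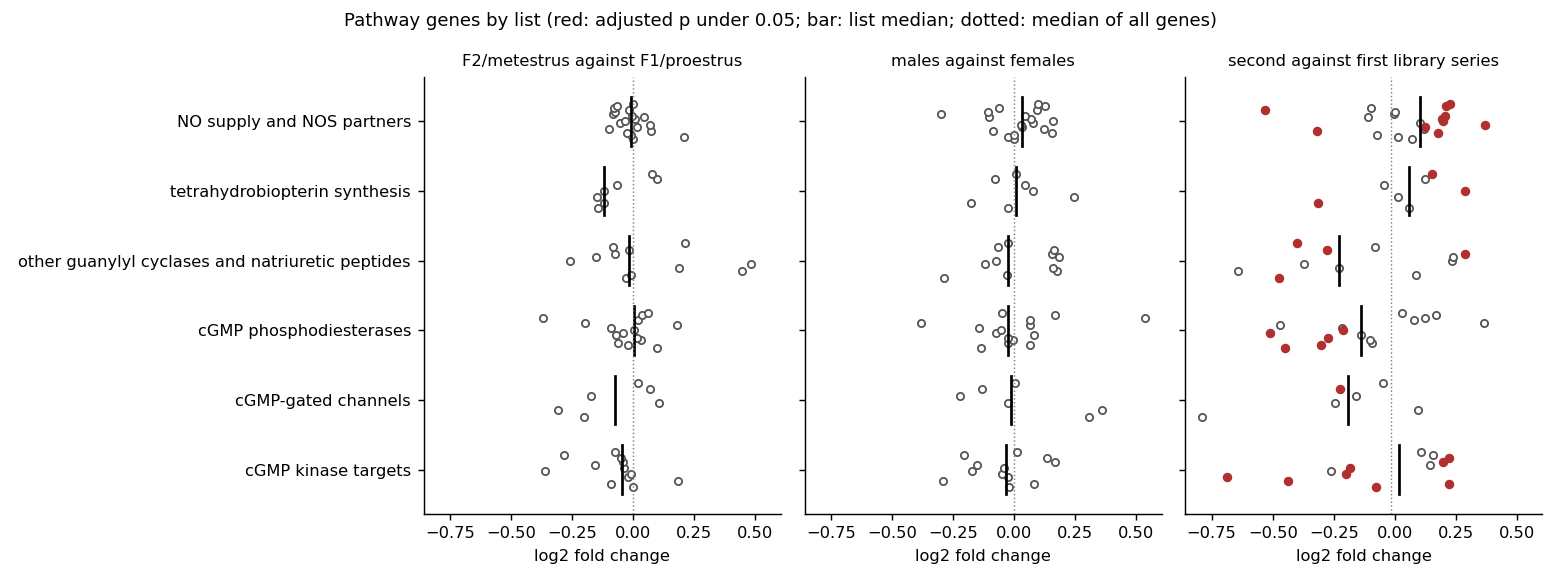
Log2 fold change (horizontal axis) of each tested pathway gene by list (rows) in 3 comparisons, red where the adjusted p is under 0.05, with bars for list medians and a dotted line for the median of all genes. No gene is red in the panels for stage and sex, and 31 of 70 are red between the library series, 14 above 0 and 17 below.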

How the data were processed

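RNA-seq counts of 18 DHSC samples were analysed. The authors deposited raw counts per Ensembl gene without normalization, which the methods say were obtained with featureCounts over exons after Subread had placed uniquely mapping reads on mm10. The submitters' processing notes name bcl2fastq 2.20.0.422 and Subread 2.0.3. The methods name a TruSeq kit, whereas the labels describe SMART-Seq cDNA with Nextera XT. A deposited table of DESeq2 results (fold changes and p-values of the authors' own comparison) was used only to pair identifiers with symbols. Groups came from the sample titles. The methods describe the 6 samples of each group as biological replicates.

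The fits used edgeR 4.0.16 in R 4.3.3, with filterByExpr (minimum count 10, minimum total 15), TMM, quasi-likelihood tests and p-values adjusted by Benjamini-Hochberg, with a threshold of 0.05 over all genes tested. All 7 members passed the filter in each comparison. Females were fitted alone for stage, all 18 samples for sex. Levels are CPM after TMM. Correlations used log2 CPM with a prior count of 2. Lengths and positions came from GENCODE annotation on GRCm38 and promoter windows from RefSeq on GRCm38.p6 (6 windows for 4 of 7 members). Ratios were compared with exact permutation tests. Alternatives were DESeq2 1.42.0, limma voom 3.58.1, size factors, no filter, the replicate number as a block, the library series as covariate or alone, 3 groups in 1 fit, 1 female group alone, and leaving out each sample. The fit was tested on simulated data.

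The members and lists were chosen with earlier results of these data known. All members are named, with the 3 genes most like each. From the lists, genes past the threshold were to be named, or else the gene with the smallest p per list and comparison, of which 1 is not reported here. Genes named between library series, a comparison chosen after seeing the data, were chosen after their values were seen.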

Additional observations from a re-analysis of the deposited data

Results flagged for a closer look

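Among the 30 sets of 6 values examined (7 genes and 3 ratios in 3 groups), the gap of an extreme sample to its neighbor exceeded Dixon's limit in 2, where chance gives about 1 in 20 sets. Both concern F1/proestrus replicate 5. Its Gucy1b1 level, 35.1 CPM, was separated from the rest of its group by 74.9% of the group's range, and its log2 ratio of Gucy1a1 to Gucy1b1, 0.30, by 69.8%. Both share the same Gucy1b1 value, and the marker sums of this sample are given in the report.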

How the results depend on the processing

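Nos2 had the fewest counts (29 to 171 a sample) and the widest intervals, and how far its depth sets them was not tested. A sex or stage difference within the intervals given could be missed. The number of members called was 0 for stage, sex and any group difference under every alternative, and 3 or 4 for the library series. The log2 fold change of Nos2 between the female stages changed sign to -0.038 with the library series as a covariate and -0.56 in the second series alone. In the first series alone the sign between the stages also changed for Gucy1a1 (-0.0086), Gucy1b1 (-0.0092), Prkg1 (0.091) and Prkg2 (0.0090). Between the sexes it changed for Nos1 (0.067) and Prkg1 (0.033) in the first series, for Nos3 (0.068) and Prkg2 (0.015) in the second, for Nos1 against F1/proestrus alone (0.014) and for Nos3 against F2/metestrus alone (0.0066). None of these values passed the test, and the cause was not tested. Ratios within 1 series, added after seeing the data, changed sign for Gucy1a1 to Gucy1b1 (-0.0031) and Prkg1 to Prkg2 (0.078) between stages and for Prkg1 to Prkg2 between sexes (0.091) in the first series, and for Nos1 to Gucy1b1 between sexes (-0.061) in the second.

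Leaving out 1 sample gave log2 ranges between stages of -0.25 to 0.22 for Nos2, -0.067 to 0.035 for Gucy1b1 and -0.049 to 0.013 for Prkg2. Between sexes they were -0.072 to 0.019 for Nos1, -0.10 to 0.012 for Nos3, -0.20 to 0.0028 for Prkg1, -0.039 to 0.0082 for Prkg2 and -0.22 to 0.021 for the Prkg1 to Prkg2 ratio, and between series -0.083 to 0.018 for Nos3, -0.015 to 0.048 for Prkg2 and -0.16 to -0.09 for Gucy1a1.

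The 49 genes called between the sexes became 166 with DESeq2, which also called 1 pathway gene (Nostrin), 134 with the library series as covariate, 16 and 13 in the first and second series alone, 13 and 22 against F1/proestrus or F2/metestrus alone, and 25 to 77 when 1 sample was left out (25 without males replicate 5, 30 without males replicate 4 and 77 without F1/proestrus replicate 5). The 35 genes called for any difference became 141 with DESeq2, 19 with limma voom, 68 with the covariate and 18 to 40 when 1 sample was left out (18, 19 and 22 without males replicate 4, 5 or 6, and 21, 20 and 21 without F2/metestrus replicate 2, 4 or 5). DESeq2 called 2 genes between the stages in place of 0. With the same counts divided by the unshared exon bases, the Nos3 to Nos1 ratio moved from 1.10 to 1.58.

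The correlations gave no sign that the replicate numbers pair the samples. For F1/proestrus with F2/metestrus, the median was 0.0519 for same-numbered samples and 0.0543 for other numbers of the same series. These medians were 0.103 and 0.0985 for males with F1/proestrus, and 0.108 and 0.137 for males with F2/metestrus. Same-numbered samples correlated above 0.1 in 2 of 6 pairs for F1/proestrus with F2/metestrus, 3 of 6 for males with F1/proestrus and 4 of 6 for males with F2/metestrus, and 1, 2 and 1 of 6 samples correlated best with their own number. With the replicate block, 148 genes were called between the sexes, 62 for any difference and 0 between stages, with 0 members in each.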
